A study of Mus musculus with 12 samples.

Results

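Cytosolic ribosomal protein genes encode the structural proteins of the large and the small subunit of the ribosome outside mitochondria. They were chosen here by symbol: each gene that the platform annotation gives alone for a probe set and whose symbol is Rpl or Rps with a number, with or without a final a, x or l, or is Rplp0, Rplp1, Rplp2 or Rpsa. The rule used no measured difference and took 67 of the 17097 genes on the arrays, 43 of the large and 24 of the small subunit. For each of the 67, the probe set with the highest mean log2(intensity + 16) over all arrays stood for the gene.

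The livers came from adult C57BL/6 mice that were either Socs2-null or wildtype. Socs2 encodes a suppressor of cytokine signalling that restrains the growth hormone receptor. Each genotype was sampled without operation (0 h) and at 24 and 36 h after 2/3 hepatectomy, an operation after which the remaining liver grows back. The 6 groups were Socs2-null at 0, 24 and 36 h and wildtype at 0, 24 and 36 h. Each held 2 arrays, and the RNA on each array was a pool of 3 animals, so n = 2 is the number of pools and the p-values measure the spread between pools. The null allele is carried by the whole animal, no group had a sham operation, and neither the sex of the mice nor the harvest hour is stated in the labels. A comparison of operated with unoperated liver therefore cannot tell apart loss of liver mass, surgery and harvest hour.

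A ribosome needs about equal numbers of nearly all of its proteins, and their genes are usually transcribed at matched high levels. Their mRNAs begin with a run of pyrimidines, the 5′ terminal oligopyrimidine or TOP motif, through which mTORC1 and the RNA-binding protein LARP1 control their translation. Growing cells make more ribosomes before they divide, and the liver after partial hepatectomy is a classic setting for that. An array measures mRNA level, not translation.

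Socs2 itself read 23.2 to 29.5 on the 6 Socs2-null arrays, against 116 to 546 on the 6 wildtype arrays. The median intensity of an array lay between 43.5 and 52.3 over all probe sets. Of 8 hepatocyte markers none was under background, and their summed intensity per array was 94497 to 100238 on operated against 104775 to 106234 on unoperated Socs2-null arrays, and 94097 to 100527 on operated against 104147 to 105861 on unoperated wildtype arrays. Summed erythroid markers (4 of 6 measured, 1 of them not above background) were 2699 to 3885 on operated against 8293 to 8460.5 on unoperated Socs2-null arrays, and 3307 to 4369.6 on operated against 8209.5 to 8215 on unoperated wildtype arrays. Neutrophil markers (5 of 6 measured) summed to 347 to 1843 on operated against 273 to 275 on unoperated Socs2-null arrays, and to 359.5 to 505 against 253 to 283 on wildtype arrays. Lymphocyte markers (10 of 12 measured, 2 of them not above background) summed to 389.7 to 450.2 against 459.6 to 474, and to 384 to 450.2 against 485 to 487. Sinusoidal endothelial markers (6 of 6) summed at 36 h to 1902 to 2046 against 2562 to 2728 in Socs2-null livers, and to 1692 to 1933 against 2447 to 2458 in wildtype livers. Kupffer cell, stellate cell and cholangiocyte sums of Socs2-null livers overlapped those at 0 h at both later times, as did cholangiocyte sums of wildtype livers. Wildtype Kupffer cell sums overlapped at 24 h. At 36 h they were 6590 to 6668 against 5663 to 6261 at 0 h. Wildtype stellate cell sums overlapped at 36 h. At 24 h they were 3439 to 3611 against 3925 to 4077 at 0 h. Single markers did not all move with their sum. At 24 h in Socs2-null livers 1 neutrophil marker was called higher and 1 lower, and 1 hepatocyte marker higher and 2 lower. Of Kupffer cell markers 2 were called higher and 3 lower, and of erythroid markers 0 higher and 2 lower. Among all genes 10.8% were called higher and 13.5% lower there (limma adjusted p under 0.05). Fewer cells of a type and less RNA per cell cannot be told apart in such bulk samples. The log2 ratio of the 3′ to the 5′ actin control, a sign of RNA quality, was 0.29 to 0.41 on operated against 0.55 and 0.55 on unoperated Socs2-null arrays, and 0.31 to 0.46 against 0.51 and 0.54 on wildtype arrays, whereas that of Gapdh overlapped. The part of these marker sums and of the actin ratio in the changes of the ribosomal protein genes was not tested. The mean of 18 hybridization controls, spiked into the cocktail and not part of the liver RNA, was 9.86 to 9.98 (log2) on arrays of unoperated, 9.34 to 9.90 on those of 24 h and 9.02 to 9.23 on those of 36 h livers. It thus moved with time after the operation, opposite to most ribosomal protein genes, and its part in their changes was not tested beyond the fit given below.

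The ribosomal protein genes were higher after hepatectomy in both genotypes, and no member was called different between the genotypes. The 63 genes with bright probe sets gave 4.85% and 4.78% of the summed intensity of all genes on the Socs2-null arrays without operation, 6.21% and 6.32% at 24 h and 6.35% and 6.67% at 36 h. Their share of the wildtype arrays was 4.86% and 4.89% without operation, 5.98% and 6.12% at 24 h and 6.49% and 6.30% at 36 h. Every operated array was thus above every unoperated one, and the genotypes lay close together at each time. For 60 of the 67 genes all 8 operated arrays were above all 4 unoperated arrays, which held for 12.2% of all genes. By their chosen probe sets the other 7 were Rpl35a, Rpl39, Rpl39l, Rpl3l, Rps15a, Rps27l and Rps29.

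**Figure D1:**
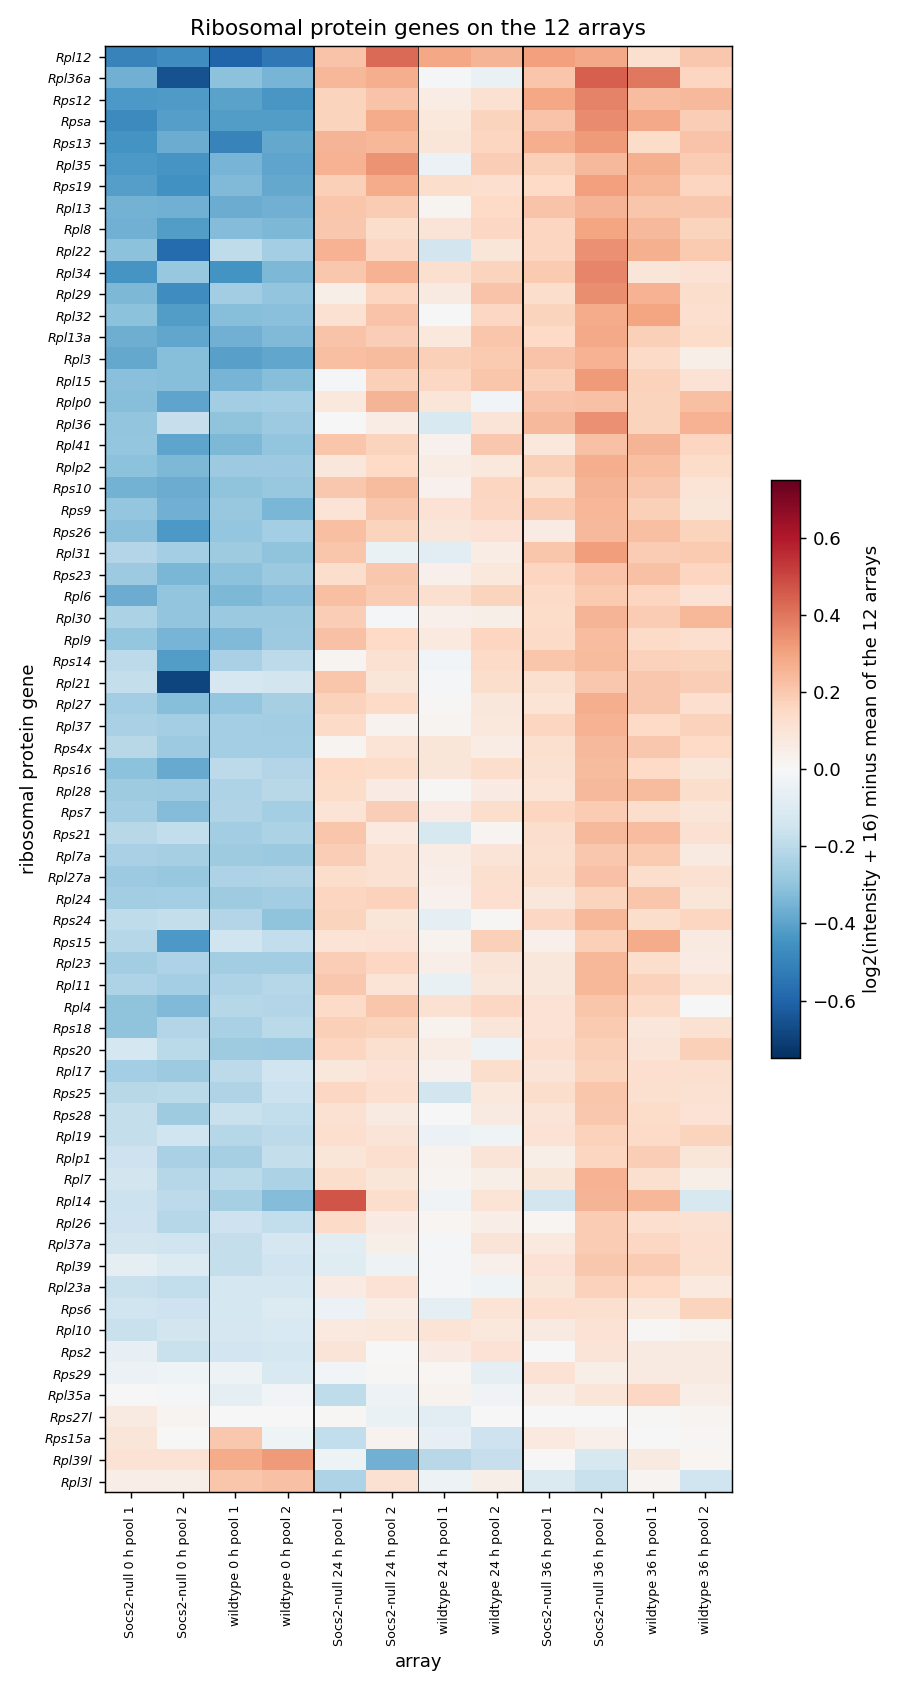
Each line is 1 of the 67 ribosomal protein genes and each column 1 array, and colour gives log2(intensity + 16) minus the mean of the gene over the 12 arrays. Lines are in the order of the change at 36 h averaged over the genotypes, and all 4 arrays at 0 h are low for most genes, with Rps27l near 0 throughout.

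In Socs2-null livers 55 members were called higher at 24 h than at 0 h, where 10.8% of all genes were called higher, and 58 at 36 h, where 9.84% were (limma, Benjamini-Hochberg adjusted p under 0.05 over all genes). In wildtype livers 40 members were called higher at 24 h, beside 10.2% of all genes, and 55 at 36 h, beside 5.69%. The only member called lower was Rpl39l in wildtype livers at 24 h, where 15.6% of all genes were called lower, and 0 were called lower in the other 3 comparisons (13.5% of all genes at 24 h and 10.1% at 36 h in Socs2-null, and 9.5% at 36 h in wildtype livers). The median log2 change of the 67 was 0.42 at 24 h and 0.46 at 36 h in Socs2-null livers, and 0.31 and 0.41 in wildtype livers. All genes together had medians of -0.04, -0.03, -0.08 and -0.06 in the same order. The arrays of the operated and the unoperated group did not overlap, with the operated one higher, for 61 members at 24 h and 63 at 36 h in Socs2-null livers and for 61 and 64 in wildtype livers, beside 27.5%, 28.4%, 26.9% and 24.3% of all genes. The operated arrays were the lower ones, without overlap, for 3 and 3 members in Socs2-null and 3 and 2 in wildtype livers, beside 34.5%, 33.6%, 43.8% and 40.3% of all genes.

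These counts depended on single arrays and on the hybridization controls. How many of all genes were called under each such setting is not given here. Fewer calls over all genes thus cannot be told apart from fewer among the members alone. Without Socs2-null 0 h pool 2 the 24 h count in Socs2-null livers was 32. In wildtype livers the 24 h count, which is 41 with Rpl39l, was 13 without either 0 h pool, 26 without 24 h pool 1 and 15 without 24 h pool 2, and the 36 h count was 14 without either 0 h pool. With the level of the hybridization controls as a covariate 30 members were called at 24 h and 3 at 36 h in Socs2-null livers, and 33 and 1 in wildtype livers. The median change was then 0.35, 0.31, 0.26 and 0.28, and the median standard error of a member 0.11, 0.19, 0.09 and 0.19 instead of 0.08. The change was positive under every one of the 25 alternatives that tested the gene in 57, 56, 59 and 55 members in the same order.

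**Figure D2:**
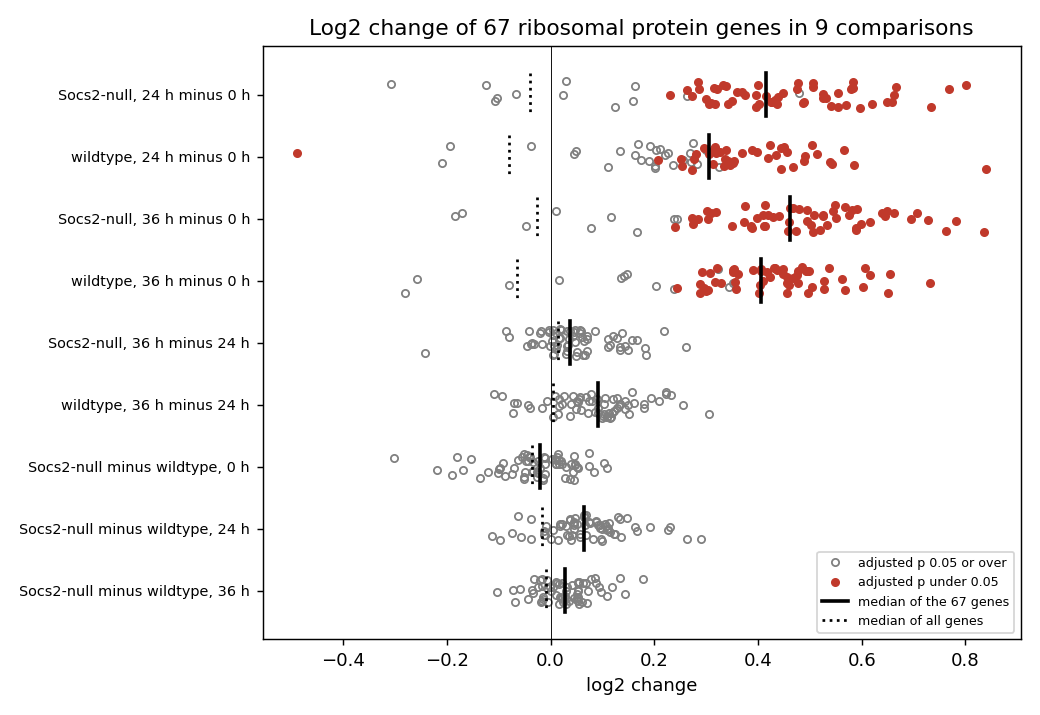
Each point is the log2 change of 1 of the 67 genes in the comparison named at the left, filled where the limma adjusted p is under 0.05, with the median of the 67 as a solid and that of all genes as a dotted line. Points of the 4 comparisons with 0 h lie mostly to the right of 0, with medians of 0.31 to 0.46, and none is filled between the genotypes or between 36 and 24 h.

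The increases were called in 39 members in all 4 comparisons with 0 h, among them Rpl12, Rps12, Rpsa, Rps13, Rpl35, Rpl3, Rpl34 and the stalk genes Rplp0, Rplp1 and Rplp2. The share of all genes called higher in all 4 is not given here. Rpl12, a large-subunit protein at the base of the ribosomal stalk, changed most at 24 h in both genotypes. It read 2663 and 2726 without operation, 4378 and 5063 at 24 h and 4679 and 4602 at 36 h in Socs2-null livers. In wildtype livers it read 2485 and 2600.5, 4616 and 4509, and 4111 and 4352. No operated array came near an unoperated one. The log2 change was 0.80 ± 0.10 (SE) at 24 h and 0.78 ± 0.10 at 36 h in Socs2-null livers (limma adjusted p = 0.000338 and 0.000402), and 0.84 ± 0.10 and 0.73 ± 0.10 in wildtype livers (0.000369 and 0.000861). Its 4 calls held under every alternative that tested it, with the highest adjusted p at 0.0345.

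Rps12, a small-subunit protein, read 3802 and 3818 without operation, 5769 and 5967 at 24 h and 6295 and 6667 at 36 h in Socs2-null livers. Its wildtype readings were 3894 and 3789, 5350.4 and 5564, and 6034 and 6081. Both genotypes were higher at each later time on every array. The log2 change at 36 h was 0.76 ± 0.08 in Socs2-null (limma adjusted p = 0.000155) and 0.65 ± 0.08 in wildtype livers (0.000621).

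Rpsa, the small-subunit protein also known as the laminin receptor precursor, read 3251 and 3403 without operation, 5089 and 5501 at 24 h and 5251 and 5804 at 36 h in Socs2-null livers. In wildtype livers it stood at 3389.7 and 3384, 4787 and 5097, and 5522 and 5144. Most of its difference from 0 h was present at 24 h. The fold on intensity + 16 was 1.66 in Socs2-null and 1.57 in wildtype livers at 36 h.

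Rps13, of the small subunit, had 1.63-fold higher signal at 36 h than at 0 h in Socs2-null and 1.53-fold in wildtype livers. Rpl35, a large-subunit protein near the exit of the peptide tunnel, read 5915 and 6238 at 24 h against 3664 and 3626 at 0 h in Socs2-null livers, and 4793 and 5615 against 3871 and 3747 in wildtype livers. Rpl3, which lies near the peptidyl transferase centre, changed by 0.58 ± 0.08 at 24 h in Socs2-null and by 0.59 ± 0.08 in wildtype livers. Rpl34, of the large subunit, changed by 0.60 ± 0.10 and 0.54 ± 0.10. Each of these 8 comparisons separated the groups on every array.

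Rplp0, Rplp1 and Rplp2 form the stalk that recruits the GTPase translation factors, and all 3 were called higher in all 4 comparisons. Rplp0 read 5859.5 and 5546 without operation, 7717 and 8732 at 24 h and 8489 and 8518 at 36 h in Socs2-null livers. In wildtype livers it read 6107 and 6117, 7803 and 7213, and 8215 and 8571. Rplp0 is often taken as a reference gene of constant level, and here its log2 change was 0.58 ± 0.09 at 36 h in Socs2-null (limma adjusted p = 0.00122) and 0.46 ± 0.09 in wildtype livers (0.00602). Rplp2 changed by 0.55 ± 0.08 and 0.46 ± 0.08 and Rplp1 by 0.30 ± 0.08 and 0.35 ± 0.08 at the same time.

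Rps6 is the small-subunit protein that S6 kinases phosphorylate below mTORC1. It read 7477 and 7459.6 without operation, 8044 and 8641 at 24 h and 9039.9 and 9013 at 36 h in Socs2-null livers, against 7566 and 7742, 7934 and 8893, and 8763 and 9316 in wildtype livers. All operated arrays were above all unoperated ones, yet its log2 change passed the test at 36 h in Socs2-null livers only (0.27 ± 0.08, limma adjusted p = 0.038). It was 0.24 ± 0.08 in wildtype livers at 36 h (0.0737), and the genotype difference of that response was 0.03 ± 0.12 (0.999). A dim second probe set of Rps6, with a mean intensity of 451, had 0.71 and 0.54 in Socs2-null and 0.60 and 0.31 in wildtype livers (limma adjusted p = 0.00505, 0.0223, 0.0129 and 0.18 over all probe sets).

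**Figure D3:**
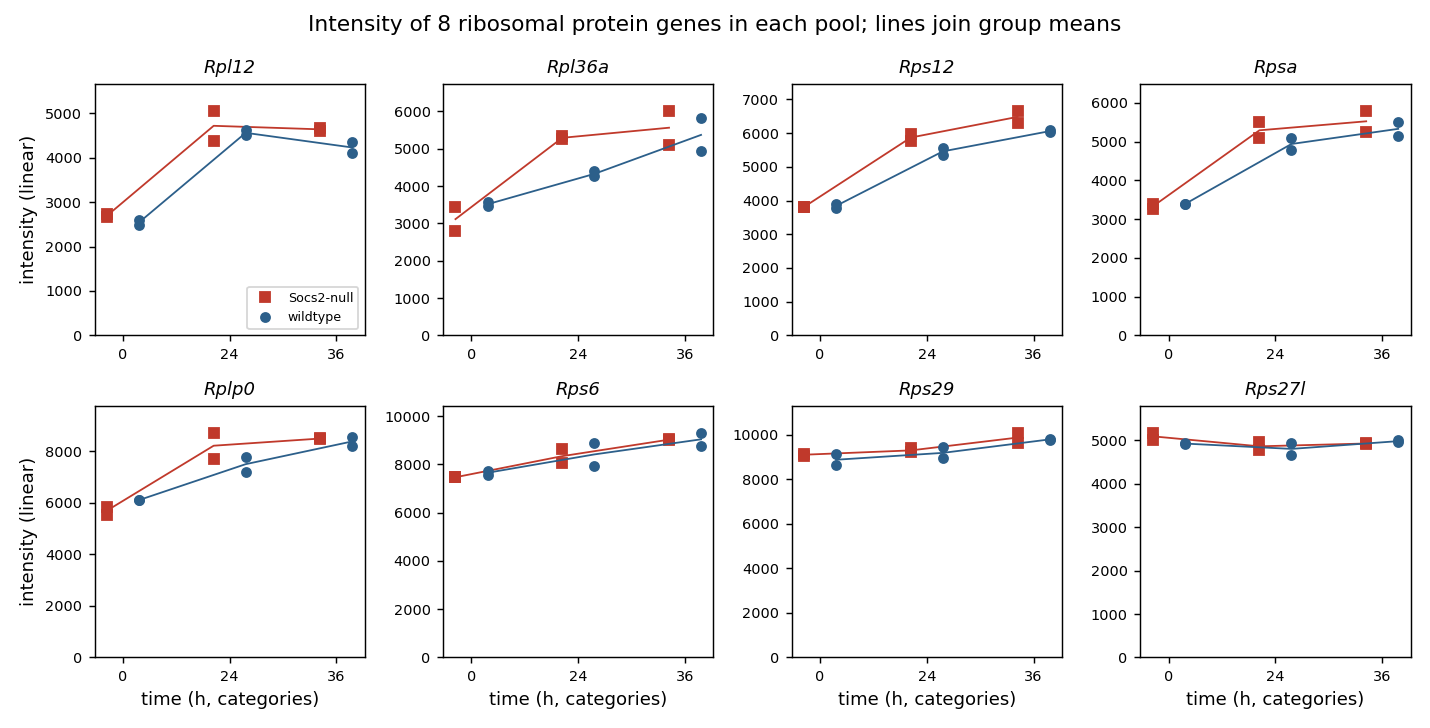
Intensity on a linear axis from 0 against hours after hepatectomy, drawn as equally spaced categories, for 8 genes, with Socs2-null pools as squares left of wildtype pools as circles and lines through the means of 2 pools. Rpl12, Rpl36a, Rps12, Rpsa and Rplp0 are higher at 24 and 36 h, Rps6 less so, and Rps29 and Rps27l, each by its chosen probe set, stay near their 0 h level.

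A few bright members differed little from 0 h by their chosen probe sets. Rps27l, a paralog of Rps27 known as a target of p53, read 5176 and 5007 without operation, 4951 and 4771 at 24 h and 4931 and 4921 at 36 h in Socs2-null livers. It read 4909 and 4939.6, 4663 and 4940.5, and 4951 and 5009.6 in wildtype livers. Its log2 differences from 0 h were -0.07 and -0.05 at 24 and 36 h in Socs2-null livers. In wildtype livers they were -0.04 and 0.02, with ± 0.08 throughout. Both of its other probe sets had differences between -0.12 and 0.02. The chosen probe set and another of Rps27l cross-hybridize in part. Rps29, a small zinc-binding protein of the small subunit, had differences of 0.03 to 0.14 and Rpl35a, of the large subunit, of -0.11 to 0.15, none of them called, and for neither chosen probe set were all operated arrays above all unoperated ones. The probe set of Rpl35a matches several genes. The probe sets of Rps29 disagree. Its second one, about as bright and also cross-hybridizing in part, read 8106 and 8069 without operation, 9859 and 9832 at 24 h and 9721 and 10039 at 36 h in Socs2-null livers, and 7791 and 7889.6, 9231 and 9141, and 9364 and 9442 in wildtype livers. Its operated arrays were all above its unoperated ones, with log2 changes of 0.28 and 0.29 in Socs2-null and 0.23 and 0.26 in wildtype livers, each ± 0.07 (limma adjusted p = 0.0194, 0.0194, 0.0459 and 0.0378 over all probe sets). Rps2, of the small subunit, had 0.16 and 0.17 in Socs2-null and 0.22 and 0.20 in wildtype livers with a smallest adjusted p of 0.0576, and its operated arrays were all above its unoperated ones. Its other probe sets had log2 differences of 0.10 to 0.31, of which 1 passed the test, in wildtype livers at 36 h (0.31 ± 0.09, limma adjusted p = 0.0347).

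Among the 63 bright members the log2 change was smaller where the mean log2 signal of the probe set was higher, with Pearson's r across genes of -0.49 and -0.59 at 24 and 36 h in Socs2-null and -0.44 and -0.55 in wildtype livers. Genes are not independent replicates, and whether the brightest probe sets were near the upper end of the array's response was not tested. Rps29, Rplp1 and Rps2 were the 3 brightest. The subunits had like shares: of 40 bright large-subunit genes 36 and 38 were called higher at 24 and 36 h in Socs2-null livers and 27 and 37 in wildtype livers, and of 23 bright small-subunit genes 19 and 20, and 13 and 18. Their median log2 changes at 36 h were 0.49 for the large and 0.43 for the small subunit in Socs2-null livers, and 0.43 and 0.41 in wildtype livers.

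The sequence around the start of transcription is shown for 5 genes called higher in all 4 comparisons with 0 h, or for Rpl36a in 3 of them (Rpl12, Rpl36a, Rpl35, Rpsa and Rps13), and for Rps6, with its smaller change, since the TOP motif begins there. For these the listed start is the outermost annotated one, whereas that of Rps12 lies inside the annotated gene and is not shown. Each window has 10 bases before and 20 from the annotated start, 5′ to 3′ on the strand of the gene, from RefSeq on GRCm38.p6, with capitals for the longest run of C or T that lies within 10 bases of the start. They lie, in order, at chr2:32961702-32961731 (+), chrX:134585644-134585673 (+), chr2:39005112-39005141 (-), chr9:120127756-120127785 (+), chr7:116334171-116334200 (-) and chr4:86857348-86857377 (-).
Rpl12: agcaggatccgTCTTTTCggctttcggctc
Rpl36a: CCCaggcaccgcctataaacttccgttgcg
Rpl35: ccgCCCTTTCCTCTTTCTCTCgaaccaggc
Rpsa: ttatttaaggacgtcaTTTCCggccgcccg
Rps13: caaacgTCggtgagtggcgtcacttcctgt
Rps6: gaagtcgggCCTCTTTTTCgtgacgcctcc

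In these windows the run was 7 bases long in Rpl12, 3 in Rpl36a, 18 in Rpl35, 5 in Rpsa, 2 in Rps13 and 10 in Rps6. Promoter entries were found for 53 of the 67 genes (79.1%), under the 80% set for a comparison of all members, which is therefore void. The counts that follow describe the 53 alone and are no result for the 67. Of the 53, 23 had a run of at least 7 bases of C or T within 10 bases of the start, read on the sense strand (43.4%), beside 14.9% of 27025 genes with an entry, and 2 had such a run of A or G (3.77% beside 16.3%). In 26 of the 53 a C after A or G, followed by at least 4 of C or T, lay within 10 bases of the start. That was 49.1%, beside 26% of the genes with an entry. A gene counted where any of its listed starts had the run, so genes with more listed starts had more chances to count. A run is a description of these letters and not evidence of use as a TOP motif.

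Between the genotypes 0 members were called at 0 h, at 24 h, at 36 h or in the average over the times, beside 0%, 0.0117%, 0.0234% and 0.0292% of all genes in either direction (limma adjusted p under 0.05). At 36 h 0.00585% of all genes were called higher and 0.0175% lower. At an unadjusted p under 0.05 there were 0, 2, 0 and 0 members, beside 4.95%, 8.24%, 6.44% and 10.2% of all genes. The median log2 difference, Socs2-null minus wildtype, was -0.02 at 0 h, 0.06 at 24 h and 0.03 at 36 h, with single members from -0.30 to 0.11, from -0.11 to 0.29 and from -0.10 to 0.18 and a median standard error of 0.08. In simulated data for wildtype livers at 24 h against 0 h, with changed genes drawn from all genes, 46% of those changed 1.5-fold were called. No such simulation was run for the genotype comparisons or for the ribosomal protein genes alone, so the 46% is not their rate. At 24 h the mean was higher in Socs2-null livers for 56 of 67 members, beside 45.9% of all genes. Both Socs2-null arrays were above both wildtype arrays for 32 members, which held for 15% of all genes. At 36 h 47 means were higher, beside 47.6% of all genes. There 16 members were separated upward and 2 downward, beside 15.2% and 17.6% of all genes. At 0 h 27 means were higher, beside 37.9% of all genes, and 14 members were separated upward and 25 downward, beside 13.9% and 27.9%.

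The response of each gene was alike in order in the genotypes. All 40 members called higher in wildtype livers at 24 h were among the 55 of Socs2-null livers (72.7% of the 55), and at 36 h 54 were shared, 93.1% of those of Socs2-null and 98.2% of those of wildtype livers. Across the 63 bright genes the changes in the genotypes had r = 0.80 at 24 h and 0.90 at 36 h, from separate arrays that share the time of sampling. The change was larger in Socs2-null livers for 52 and 47 of them, beside 55.8% and 60.3% of all genes. The difference between the genotypes in the response was called for 0 members at 24 and at 36 h (beside 0% and 0.00585% of all genes). Its medians were 0.10 and 0.06, beside 0.03 and 0.05 for all genes, with a median standard error of 0.12 in both. At an unadjusted p under 0.05 there were 2 and 0 members, beside 3.78% and 3.74% of all genes.

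The 2 members with an unadjusted p under 0.05 for this difference at 24 h were Rpl36a and Rpl22, both of the large subunit. Rpl36a read 3429 and 2801 without operation, 5253 and 5335 at 24 h and 5107 and 6023 at 36 h in Socs2-null livers, and 3571 and 3457, 4396 and 4259, and 5815 and 4930.1 in wildtype livers. At 24 h both Socs2-null pools were above both wildtype pools, and the difference in response was 0.47 ± 0.17 (limma adjusted p = 1.00). Rpl22 read 2221 and 1841 without operation, 3300.0 and 3064 at 24 h and 3077 and 3501 at 36 h in Socs2-null livers, and 2409.6 and 2301, 2504 and 2929.7, and 3315 and 3161 in wildtype livers, a difference in response of 0.45 ± 0.17 (1.00). Pool 2 of the Socs2-null 0 h group was the lowest of the 12 arrays for both genes. It was lowest too for Rpl21, of the large subunit, with 3172 against 4522 in the other pool and 4691 and 4654 in wildtype livers.

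**Figure D4:**
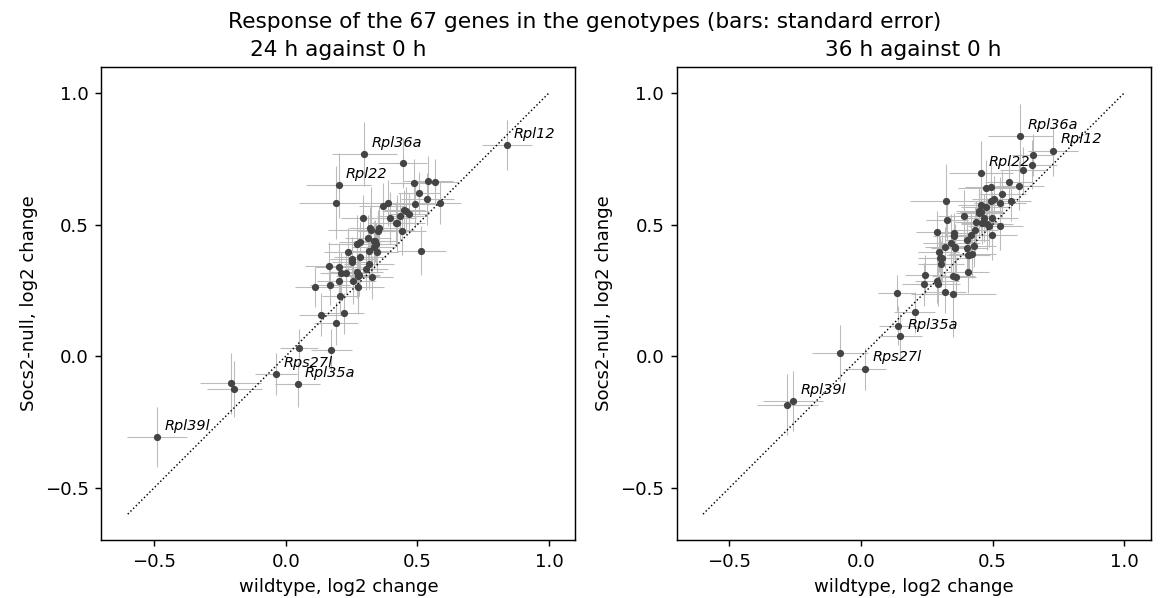
Log2 change from 0 h in Socs2-null livers (vertical axis) against that in wildtype livers (horizontal axis) for the 67 genes at 24 h and at 36 h, with standard errors as bars and the line of equal change dotted. At 24 h 52 and at 36 h 47 of the 63 bright genes lie above the line, and Rpl36a and Rpl22 lie farthest above it at 24 h. Of all genes, not drawn, 55.8% and 60.3% had the larger change in Socs2-null livers.

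From 24 to 36 h 0 members were called in either genotype, beside 0.00585% of all genes in Socs2-null and 0.24% in wildtype livers. At an unadjusted p under 0.05 there were 2 and 5 members, beside 7.18% and 14.9% of all genes. The median change was 0.04 in Socs2-null and 0.09 in wildtype livers, and 53 and 58 means were higher at 36 h, beside 53.7% and 51.1% of all genes. With the hybridization control covariate these medians were -0.01 and -0.02, so their direction depends on that setting. Rpl36, a large-subunit protein, was among these 2 and these 5. It read 4445 and 4765 at 36 h against 3768 and 3905 at 24 h in Socs2-null livers, and 4219 and 4501 against 3466 and 4015 in wildtype livers. The later arrays were above the earlier ones, and the log2 difference was 0.26 ± 0.10 and 0.22 ± 0.10 (limma adjusted p = 0.633 and 0.329). Rpl39, whose product lies in the peptide tunnel, had 0.22 ± 0.08 in Socs2-null livers (0.621) and 0.14 ± 0.08 in wildtype livers (0.423).

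Dim probe sets stood for 4 members. Rps15a was not well above background on any array, so no change is given for it. Rpl3l, the striated-muscle paralog of Rpl3, was above the brightest tag control on 2 of 12 arrays, with 26.9 to 38.6 in Socs2-null and 29.4 to 42.7 in wildtype livers. Rpl39l, the testis-enriched paralog of Rpl39, was above it on 11 arrays and read 45.3 and 46.9 at 24 h against 69.9 and 72.4 at 0 h in wildtype livers. That is a log2 change of -0.49 ± 0.11 (limma adjusted p = 0.011, from 0.00383 to 0.0765 over the alternatives), and in Socs2-null livers it was -0.31 ± 0.11 (0.0705). Rpl14, of the large subunit, read 45.2 to 90.1 by the only probe set that names it alone. Its other probe sets on the array are annotated with a pseudogene too and were not used here.

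Of the 67 chosen probe sets 15 are unique, 29 have probes shared by transcripts of one gene (suffix a), 5 match several genes (s) and 18 cross-hybridize in part (x), and processed pseudogenes of these genes are numerous. Without x and s probe sets 59 members could be tested, and 43 and 46 were called in Socs2-null and 35 and 44 in wildtype livers at 24 and 36 h. With the unique ones alone 30 could be tested, and 13, 15, 9 and 13 were called. For 15 of the 30 the unique probe set replaced a brighter one. Many of these replacements were near the brightest tag control, which read 33.0 to 45.0 over the arrays. Mean intensities were 27.4 for Rpl11, 33.0 for Rpl31, 39.2 for Rps13 and 38.5 for Rps20, against 6441 for Rpl10 and 4802 for Rps12. A missing call of such a dim probe set cannot be read as a missing change. The shares of all genes called with these probe set choices are not given here. Of 33 other probe sets of members with a mean intensity over 1000, 24 and 27 were called higher at 24 and 36 h in Socs2-null livers and 14 and 24 in wildtype livers, beside 9.6%, 9.96%, 8.47% and 5.52% of all probe sets. No bright one was called lower. A second, dim probe set of Rpl22, of type s, moved against the first, with 118 and 113 at 24 h and 102 and 118 at 36 h against 199.5 and 219 at 0 h in Socs2-null livers, and 128 and 144 and 92.8 and 106 against 206 and 208 in wildtype livers. Its log2 changes were -0.77, -0.84, -0.55 and -0.95 (limma adjusted p = 0.00162, 0.00109, 0.0101 and 0.000874 over all probe sets).

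Across the 12 arrays the members followed one another closely. The Pearson correlation of a member with the mean of the others had a median of 0.97 over the 67, and the exceptions were Rpl39l (-0.69), Rpl3l (-0.67), Rps15a (-0.37), Rps27l (-0.35), Rpl35a (0.29) and Rps29 (0.67). The arrays share normalization and time, so these are descriptions. The non-member with the pattern most like the members' mean was Gnb1, a G protein beta subunit (r = 0.993), followed by the pseudogene Rpl34-ps1 (0.988), the proteasome ATPase gene Psmc4 (0.986), the ribosomal protein gene Rps3a1 (0.985), Prkar1a, Mad2l2, Vps36, Agpat3, Pole3 and Rnd2 (0.980 or higher).

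Other genes of the translation machinery were examined as lists. Ribosomal protein genes that the symbol rule missed (5 of 7 measured) were called higher in 5 cases at 24 h and 5 at 36 h in Socs2-null livers and in 3 and 3 in wildtype livers. The shares of all genes called higher were 10.8%, 9.84%, 10.2% and 5.69% in the same order. Rpl22l1, the paralog of Rpl22 whose mRNA Rpl22 is known to repress in mouse, read 1999 and 2138 without operation, 3606 and 3297 at 24 h and 3528 and 4249.8 at 36 h in Socs2-null livers. In wildtype livers it read 1752 and 1684, 3097 and 3189.7, and 3680.3 and 3118, a log2 change of 0.97 ± 0.12 at 36 h (limma adjusted p = 0.000647). No operated array overlapped an unoperated one. Its changes ran from 0.73 to 0.97, beside 0.20 to 0.70 for the chosen Rpl22 probe set.

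Translation initiation and elongation factors (32 of 41 measured) were called higher in 22 and 20 cases at 24 and 36 h in Socs2-null livers and in 14 and 13 in wildtype livers, and 0 were called lower. Among all genes 10.8%, 9.84%, 10.2% and 5.69% were called higher and 13.5%, 10.1%, 15.6% and 9.5% lower. The median log2 changes of the factors were 0.54, 0.53, 0.35 and 0.37. Eif4a1, the RNA helicase of the cap-binding complex, read 5239 and 6566 at 24 h against 3143 and 3139.8 at 0 h in Socs2-null livers, and 6158 and 6398 against 3095 and 3246 in wildtype livers. Eif1a, an initiation factor of the scanning ribosome, changed by 1.53 ± 0.18 at 36 h in Socs2-null livers (limma adjusted p = 0.000318). Eef1a1, the elongation factor that delivers aminoacyl-tRNA, had -0.09 and -0.13 in Socs2-null and -0.06 and -0.07 in wildtype livers, none of which passed the test.

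Ribosome biogenesis genes (42 of 44 measured) were called higher in 22 and 17 cases in Socs2-null livers at 24 and 36 h and in 25 and 5 in wildtype livers, and lower in 1 and 0, and 1 and 1, with medians of 0.73, 0.77, 0.85 and 0.45. Beside these counts, 10.8%, 9.84%, 10.2% and 5.69% of all genes were called higher and 13.5%, 10.1%, 15.6% and 9.5% lower. Ddx21, a nucleolar RNA helicase, read 824 and 524 at 36 h against 183 and 196 at 0 h in Socs2-null livers, and 366 and 526 against 184 and 181 in wildtype livers. Bysl, needed for the small subunit, read 413 and 398 at 24 h against 145 and 163 at 0 h in wildtype livers. Both were higher on all operated arrays. No gene of this list was called between the genotypes. At 36 h the mean was higher in Socs2-null livers for 38 of the 42, beside 47.6% of all genes, with a median log2 difference of 0.29. At 24 h it was higher for 9 and at 0 h for 17 of them, beside 45.9% and 37.9%, with medians of -0.11 and -0.03. Genes are not independent replicates, and this pattern was not tested.

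Genes around mTORC1 and LARP1 (14 of 17 measured) were called in both directions, with 1 and 2 higher and 2 and 4 lower in Socs2-null livers at 24 and 36 h, and 2 and 1 higher and 3 and 3 lower in wildtype livers. Of all genes 10.8%, 9.84%, 10.2% and 5.69% were called higher and 13.5%, 10.1%, 15.6% and 9.5% lower in these comparisons. Ddit4, an inhibitor of mTORC1, read 796 and 939 at 24 h and 1259 and 778 at 36 h against 163 and 109 at 0 h in Socs2-null livers, and 449 and 441 and 400.2 and 379.6 against 140.3 and 131 in wildtype livers. Deptor, which binds and inhibits mTOR, read 575 and 572 at 24 h against 1585 and 1659 at 0 h in wildtype livers, a log2 change of -1.47 ± 0.21 (limma adjusted p = 0.00126). Rptor, the scaffold of mTORC1, fell by 0.64 on the log2 scale at 36 h in Socs2-null livers (0.00624), and Sesn2, a leucine sensor upstream of mTORC1, rose by 0.86 at 24 h in wildtype livers (0.00622).

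Mitochondrial ribosomal proteins (73 measured), which form a separate ribosome, were called higher in 16 and 9 cases and lower in 3 and 2 in Socs2-null livers at 24 and 36 h, and higher in 10 and 1 and lower in 2 and 1 in wildtype livers, beside the same shares of all genes. Their medians were 0.19, 0.07, 0.18 and 0.02, beside 0.42, 0.46, 0.31 and 0.41 for the 67 cytosolic ones. Mrpl17 read 2362 and 3166 at 24 h against 1156 and 1455 at 0 h in Socs2-null livers, whereas Mrpl14 read 341 and 401 at 36 h against 675 and 673 at 0 h.

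**Figure D5:**
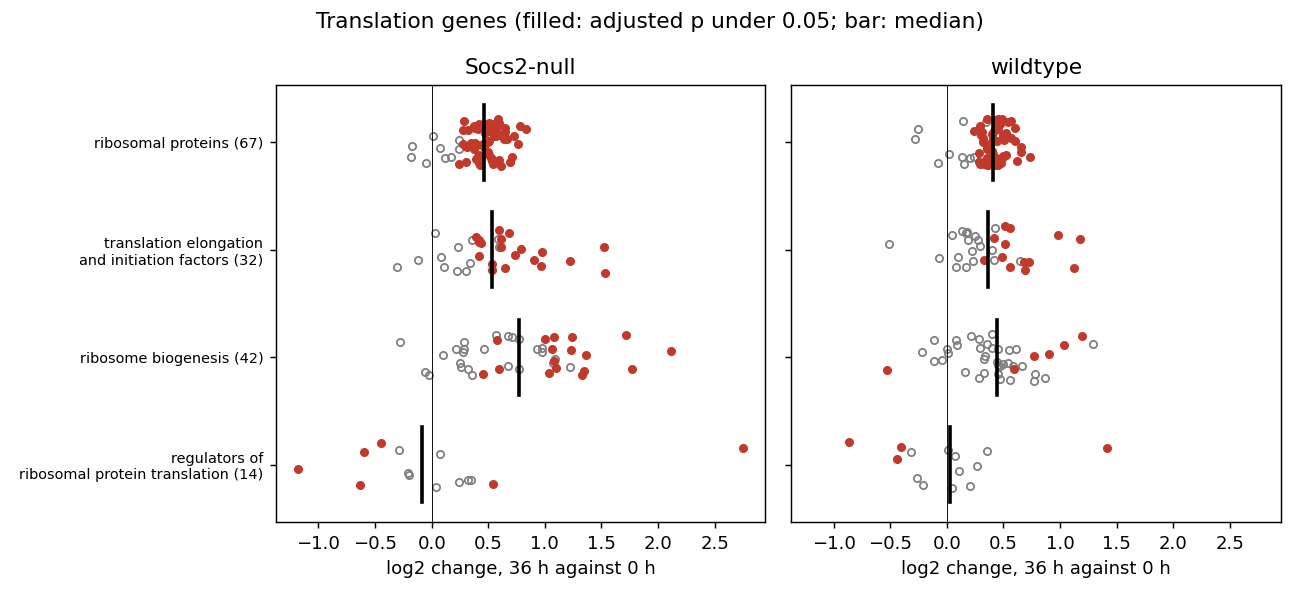
Log2 change at 36 h against 0 h in Socs2-null (left) and wildtype livers (right) for the genes of 4 lists, with the number measured in brackets, filled points for a limma adjusted p under 0.05 and a bar at the median. The 67 ribosomal protein genes lie in a narrow band with medians of 0.46 and 0.41, biogenesis genes spread wider, and the mTORC1 list has members on both sides of 0.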

How the data were processed

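The authors deposited 1 processed intensity per probe set and array (45141 probe sets, 12 arrays) on a linear scale, as the values show. How they corrected background, summarized probes and normalized is not stated in any label or header, and no scaling was added. Per the labels' protocols, 10 micrograms of total RNA gave biotin-labelled cRNA. A single gene is annotated for 28898 probe sets, more than 1 for 551 and none for 15588. The 17097 genes were tested as log2(intensity + 16) with no filter in 1 model of the 6 groups with limma 3.58.1 (eBayes with trend and robust, statmod 1.5.0, R 4.3.3). Tests were two-sided, p was adjusted by Benjamini-Hochberg across all 17097 genes, and a gene was called under 0.05. A fold understates the change of dim genes. Few arrays limit the precision of every value. "Not well above background" means under the brightest of 17 tag controls. The test was checked on simulated data.

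Members, lists and rules were chosen with earlier results of these data known. Genes named were Rps6, the stalk genes, Rpsa, paralogs ending in l, the 3 brightest, the 3 dimmest, the 3 widest ranges, the 5 largest called changes or the 3 highest and lowest test statistics of each comparison, and up to 4 genes of each other list. Other genes named (Rpl14, Eef1a1 and genes in lists of exceptions or of shared calls) were chosen after their values were seen, and some that the rule takes were not described. The alternatives tried were quantile normalization, array centring, pseudocounts of 1 and 64, leaving out the dimmest 50% of genes, averaging the probe sets of a gene, other probe set choices, plain eBayes, fitting just the arrays under comparison, a replicate block, and each array left out. Leaving out the 4 dim members, the x and s probe sets, or fitting the hybridization control level was added after the data were seen. Figures used Python 3.11.15 and matplotlib 3.10.9.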

Additional observations from a re-analysis of the deposited data

How the results depend on the processing

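The counts of members called between the genotypes, in the difference of the responses and from 24 to 36 h were 0 under every alternative. For the comparisons with 0 h, in the order Socs2-null 24 h, Socs2-null 36 h, wildtype 24 h and wildtype 36 h, the reported counts in either direction were 55, 58, 41 and 55. They were 13, 15, 9 and 13 with unique probe sets alone, where 30 members could be tested, many by probe sets near background. With the hybridization control covariate, chosen after the data were seen, they were 30, 3, 33 and 1. That covariate moves with time and widened the errors. With the arrays compared alone the Socs2-null 24 h count was 36. The shares of all genes called under these alternatives are not given here. Leaving out 1 array in turn gave 32 to 56, 39 to 59, 13 to 45 and 14 to 55. The lowest came without Socs2-null 0 h pool 2 for both Socs2-null counts and without either wildtype 0 h pool for both wildtype counts, and without wildtype 24 h pool 1 or 2 the wildtype 24 h count was 26 or 15. Quantile normalization gave medians of 0.34, 0.38, 0.24 and 0.30, and centring on array medians gave 0.50 for Socs2-null 24 h and 0.43 and 0.48 for wildtype 24 and 36 h, with the median of all genes at 24 h in wildtype livers at 0.04 instead of -0.08. The median of the members kept its sign in these 4 comparisons under every alternative. Of the members called higher, 4, 3, 1 and 5 were not positive under every alternative. At 24 h in Socs2-null livers these were Rpl21, Rpl22, Rps13 and Rps20. The alternative with unique probe sets tested Rpl21, Rps13 and Rps20 near background, at mean intensities of 40.4, 39.2 and 38.5. Which alternative turned each sign is not given here. The median from 24 to 36 h turned to -0.01 in Socs2-null and -0.02 in wildtype livers with the hybridization control covariate, and in Socs2-null livers to -0.01 with centring and to -0.01 without Socs2-null 36 h pool 2. That of the genotypes turned to 0.05 at 0 h with centring and to -0.02 at 36 h without Socs2-null 36 h pool 2. Beyond these the cause was not tested. With the replicate number as a block the counts were 53, 58, 39 and 50 and 0 elsewhere. The numbers do not pair the samples, since the differences between replicate 1 and 2 correlated from -0.50 to 0.35 over 15 pairs of groups, 3 of them over 0.1. Groups of 2 pools limit the precision of every change.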
